A study of Mus musculus with 6 samples.

Results

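Heparan sulfate is a sulfated sugar chain carried by proteoglycans on the cell surface and in the matrix. After the chain has been polymerised, the N-deacetylase/N-sulfotransferases (NDST enzymes, encoded by Ndst1, Ndst2, Ndst3 and Ndst4) replace acetyl groups of glucosamine with sulfate, the epimerase encoded by Glce turns glucuronic acid next to N-sulfated sugars into iduronic acid, and the 2-O-sulfotransferase encoded by Hs2st1 sulfates that iduronic acid. Most later changes to the chain depend on these steps. In the liver, heparan sulfate of hepatocytes binds remnants of triglyceride-rich lipoproteins, and mice whose hepatocytes lack Ndst1 or Hs2st1 are known to clear these particles slowly.

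These 6 genes were taken as a list by their place in the pathway, though earlier results of these data were known when the list was chosen. All 6 were found among the 909 genes that could be named on a focused glycan gene array, each with 1 probe set, and none of the 6 probe set names carries a suffix that marks possible cross-hybridisation. The data are 6 arrays of total RNA from whole liver of male mice, 3 labelled wildtype and healthy and 3 labelled diabetic, in a series on insulin-deficient diabetes. No source used here names the strain, the age, the way diabetes was brought about or its duration. The question behind the series was whether diabetic liver makes less of the enzymes of glycosaminoglycans, the class of chains to which heparan sulfate belongs, with the turnover of plasma lipids in view. Whether every array stands for its own animal is implied by the design and not stated per sample, so the p-values measure the spread between these samples, which may in part be technical. In whole tissue, fewer cells of a type and less RNA per cell cannot be told apart.

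The values are log2 expression values, so a difference of 1 is a doubling. Array medians lay between 4.93 and 5.06. All 11 measured hepatocyte markers lay above the median of all probe sets, which is what the label liver implies; the cholangiocyte markers listed were not analysed here. Wildtype replicate 2 stood apart from the rest: 40 of 1246 probe sets lay over 0.5 above or below every other array there, against 1 to 21 on the other arrays.

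The 6 genes fell into 4 with signals above the median probe set and 2 below it. Averaged over all arrays, Ndst1 lay at percentile 92.9 of probe set signal, Glce at 77.6, Ndst2 at 77.1 and Hs2st1 at 70.0. Ndst4 lay at percentile 25.0 and Ndst3 at 18.5. This is an order of signal, which also depends on how well each probe binds, so it is not an order of transcript abundance. No detection call was used, so the Ndst3 and Ndst4 signals were not separated from background. Ndst1 and Ndst2 are known as the broadly expressed NDST genes, whereas Ndst3 and Ndst4 are known from a narrower set of tissues, among them brain.

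The sequence before the annotated start also differed between the brighter members with an entry and Ndst3, the only dim member with an entry. The starts were taken as annotated and not checked. The Ndst3 window shown ends in a run of t followed by cag and may not be a promoter, so the contrast may be between unlike sequences. The 250 bases before the gene start are shown for the 4 members with an entry in the RefSeq promoter table of the build GRCm38.p6, because they place the bright Ndst2, Glce and Hs2st1 beside the dim Ndst3. They are written in the direction of transcription from 5′ to 3′, and capitals mark each CG, a motif that reads the same on both strands. Ndst2 (chr14:20734563-20734812, minus strand), Glce (chr9:62122610-62122859, minus strand), Hs2st1 (chr3:144570217-144570466, minus strand) and Ndst3 (chr3:123672478-123672727, minus strand) read as follows.
Ndst2: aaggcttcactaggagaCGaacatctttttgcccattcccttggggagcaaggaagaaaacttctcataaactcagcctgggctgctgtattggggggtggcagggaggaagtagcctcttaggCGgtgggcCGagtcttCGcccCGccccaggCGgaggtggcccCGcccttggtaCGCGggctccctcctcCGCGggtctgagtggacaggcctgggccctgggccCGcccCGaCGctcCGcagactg
Glce: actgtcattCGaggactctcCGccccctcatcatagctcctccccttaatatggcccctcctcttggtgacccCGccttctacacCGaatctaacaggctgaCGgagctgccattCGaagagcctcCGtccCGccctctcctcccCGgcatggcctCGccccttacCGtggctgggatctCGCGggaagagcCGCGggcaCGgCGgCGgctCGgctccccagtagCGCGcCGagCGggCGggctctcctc
Hs2st1: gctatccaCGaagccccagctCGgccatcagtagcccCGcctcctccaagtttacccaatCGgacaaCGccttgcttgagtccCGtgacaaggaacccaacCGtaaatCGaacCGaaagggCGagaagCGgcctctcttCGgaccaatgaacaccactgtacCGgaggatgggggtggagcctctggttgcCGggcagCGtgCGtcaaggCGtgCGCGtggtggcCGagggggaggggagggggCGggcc
Ndst3: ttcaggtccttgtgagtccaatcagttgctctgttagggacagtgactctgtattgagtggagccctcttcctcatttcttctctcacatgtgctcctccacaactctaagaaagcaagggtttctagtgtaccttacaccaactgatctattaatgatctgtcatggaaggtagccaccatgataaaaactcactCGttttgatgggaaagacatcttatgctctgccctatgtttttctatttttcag

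The window of Glce held 24 CG, that of Hs2st1 21 and that of Ndst2 15. Of all 32851 windows of this length in the table, 12.0% held at least as many as Glce, 16.3% at least as many as Hs2st1 and 27.3% at least as many as Ndst2. The Ndst3 window printed here held 1 CG, and a second start of Ndst3 held 3; 92.1% and 71.0% of all windows held at least as many. GC content was 67.2% for Glce, 64.4% for Hs2st1, 64.8% for Ndst2 and 42.4% for the Ndst3 window shown. Across the array, genes with more CG before the annotated start also had a higher median signal. Of 708 named genes with a promoter entry, the 399 with at least 10 CG had a median signal of 6.55 (quartiles 4.70 and 8.12), and the 309 with fewer had 4.57 (3.50 and 5.79). The limit of 10 CG was chosen after the members' counts had been seen, and the comparison is a description without a test. The starts of these genes were not checked either.

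**Figure D1:**
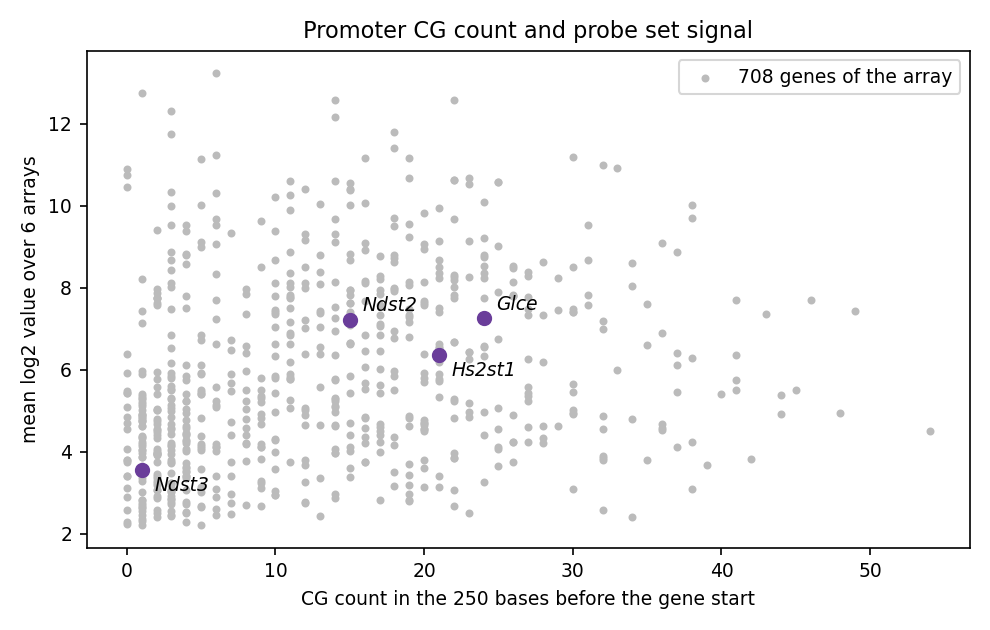
Number of CG in the 250 bases before the gene start (horizontal axis, count) against the mean log2 value over 6 arrays (vertical axis) for 708 named genes (grey), with Ndst2, Glce, Hs2st1 and Ndst3 in purple. Ndst3 sits at 1 CG with a low signal, and the other 3 sit at 15 to 24 CG above the median signal, within a wide scatter of other genes.

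None of the 6 genes differed between diabetic and wildtype liver by limma's test at an adjusted p under 0.05 (Benjamini-Hochberg, across the 1246 probe sets). Across the array that rule called 4 probe sets, or 0.321%, all of them higher in diabetic liver. At an unadjusted p under 0.05, 1 of the 6 genes passed, Glce, where 2.97% of all probe sets did. All 6 means were higher in diabetic liver, but 5 of the differences were under 0.1 on the log2 scale; 630 of 1246 probe sets had a higher mean. The median difference of the 6 was 0.024 against 0.002 over all probe sets. The groups overlapped for each of the 6 genes, while 98 probe sets, or 7.87%, showed no overlap.

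**Figure D2:**
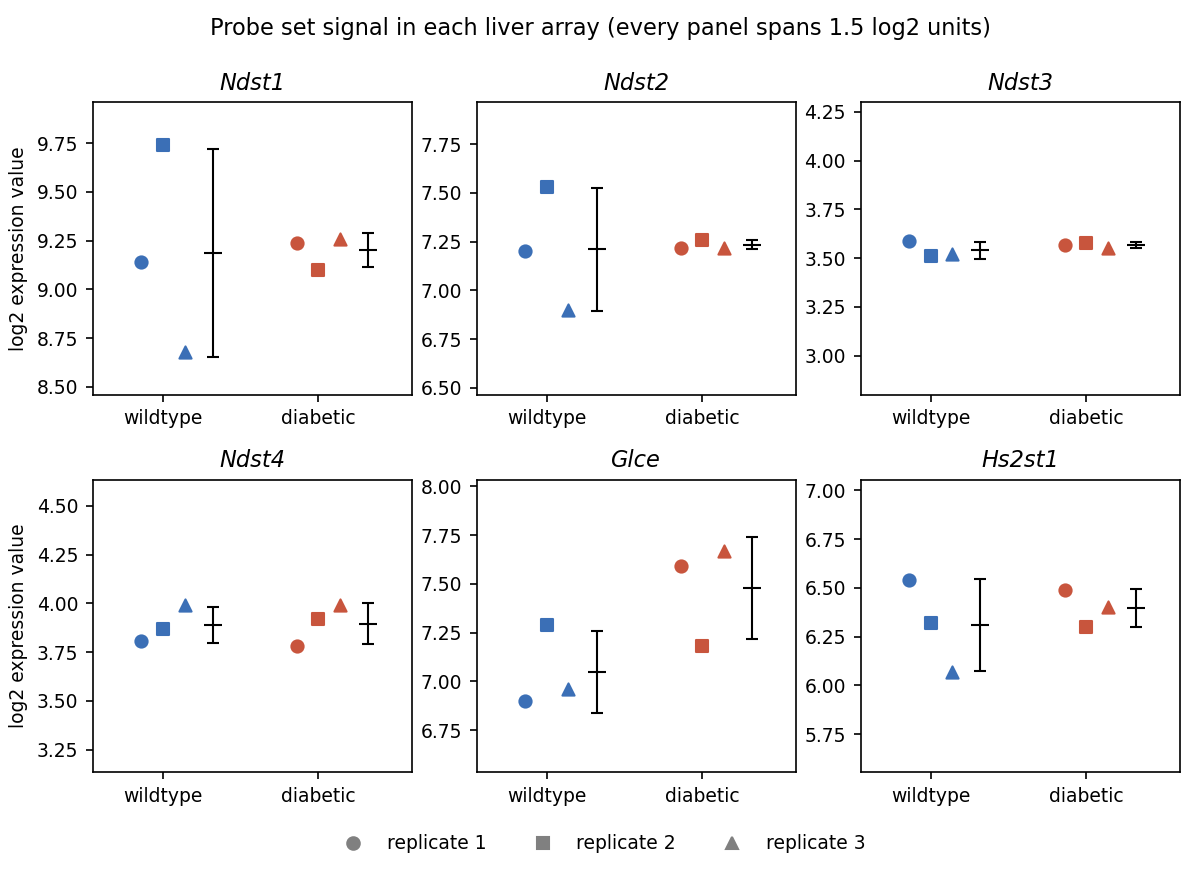
Log2 expression value (vertical axis) of each of the 6 genes on the 3 wildtype (blue) and 3 diabetic (red) arrays; marker shape gives the replicate number, and the bar beside each group its mean ± SD. Every panel spans the same log2 distance, so the wide wildtype spread of Ndst1 and Ndst2, the overlap of wildtype 2 with the diabetic arrays for Glce and the flat Ndst3 can be compared by eye.

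Ndst1, the main NDST gene of hepatocytes, read 9.14, 9.74 and 8.68 on wildtype arrays 1, 2 and 3 and 9.24, 9.10 and 9.26 on diabetic arrays 1, 2 and 3. The diabetic arrays lay close together, inside the range set by wildtype 2 at the top and wildtype 3 at the bottom. Diabetic arrays averaged 9.20 ± 0.09 and wildtype arrays 9.19 ± 0.53 (SD, n = 3 per group), a difference of 0.013 with a standard error (SE) of 0.25. The 95% confidence interval ran from -0.60 to 0.62 (limma adjusted p = 0.993). In fold terms the interval ran from 0.661 to 1.54, so a change of Ndst1 of that size in either direction was within the error. The sign rested on single arrays, with -0.24 without wildtype 3 and 0.29 without wildtype 2.

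Ndst2, the other broadly expressed NDST gene and the one needed for heparin in mast cells, read 7.20, 7.53 and 6.90 on wildtype arrays 1, 2 and 3. On diabetic arrays 1, 2 and 3 it read 7.22, 7.26 and 7.22. As for Ndst1, wildtype 2 was highest and wildtype 3 lowest, with all diabetic values between them. The means were 7.23 ± 0.02 and 7.21 ± 0.31 (SD, n = 3 per group), a difference of 0.023 (SE 0.16, 95% confidence interval -0.36 to 0.40; limma adjusted p = 0.99). It was -0.13 without wildtype 3 and 0.18 without wildtype 2.

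The spread between wildtype arrays was thus larger than between diabetic arrays for both genes, by 5.96 times for Ndst1 and 14.4 times for Ndst2 as a ratio of SDs. These ratios lay at percentiles 96.2 and 99.1 of all probe sets, whose median ratio was 1.15. With 3 arrays a group such ratios vary widely, and the difference in spread was not tested. Within each array the difference between Ndst1 and Ndst2 varied less than Ndst1 itself in wildtype liver, at 1.95, 2.21 and 1.78 on wildtype arrays 1, 2 and 3, an SD of 0.22. In diabetic liver it was 2.03, 1.84 and 2.04, an SD of 0.11, which was not below the 0.09 of Ndst1 itself there. The 2 groups differed by -0.0097 in this difference (exact two-sided permutation p = 1). With 3 against 3 the smallest possible p is 0.1.

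Ndst3 was the flattest of the 6 genes. It read 3.59, 3.51 and 3.52 on wildtype arrays and 3.57, 3.58 and 3.55 on diabetic arrays, a range of 0.072 over all 6, where the median range over all probe sets was 0.38. Diabetic minus wildtype came to 0.026, with an interval of -0.14 to 0.19 (limma adjusted p = 0.99). Ndst4 read 3.81, 3.87 and 3.99 on wildtype arrays 1, 2 and 3 and 3.78, 3.92 and 3.99 on diabetic arrays 1, 2 and 3. Same-numbered arrays of the 2 groups lay within 0.047 of each other, and its difference was 0.0052 (-0.22 to 0.23; adjusted p = 0.992), with the sign turned to -0.0046 by quantile normalization. At signals this low a difference can be hidden, so these narrow intervals do not show that the 2 transcripts were at the same level in both groups.

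Glce, which encodes the only glucuronyl epimerase of heparan sulfate, had the widest gap between groups of the 6 genes. It read 6.90, 7.29 and 6.96 on wildtype arrays 1, 2 and 3, and 7.59, 7.18 and 7.67 on diabetic arrays 1, 2 and 3. Diabetic 1 and 3 lay above every wildtype array, but diabetic 2 lay below wildtype 2. Diabetic arrays averaged 7.48 ± 0.26 and wildtype arrays 7.05 ± 0.21 (SD, n = 3 per group), which put diabetic liver 0.43 above wildtype (SE 0.17), or 1.35-fold. The 95% confidence interval, which is not adjusted for the number of probe sets, ran from 0.026 to 0.83, and limma gave an adjusted p = 0.928 (0.0403 before adjustment). A difference at least this large in either direction was seen for 51 of 1246 probe sets, or 4.09%. The Glce difference stayed positive without any 1 array, from 0.34 without diabetic 3 to 0.58 without diabetic 2, and it did not pass in any of these fits.

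Arrays of both groups carry the numbers 1 to 3. Deviations of same-numbered arrays from their group means correlated at 0.397, 0.138 and 0.162, with no arrays of unlike number compared beside them. Compared within number, Glce was higher in diabetic liver by 0.69 for number 1 and 0.71 for number 3, and differed by -0.11 for number 2. With the number as a block the interval of the Glce difference ran from -0.11 to 0.97 (limma adjusted p = 0.822, and 0.0928 before adjustment), so it took in 0.

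Hs2st1, the only 2-O-sulfotransferase gene of heparan sulfate, read 6.54, 6.32 and 6.07 on wildtype arrays 1, 2 and 3. The diabetic arrays read 6.49, 6.30 and 6.40 and lay inside the wildtype range. The means were 6.40 ± 0.09 and 6.31 ± 0.23 (SD, n = 3 per group), a difference of 0.089 (SE 0.13, 95% confidence interval -0.23 to 0.41; limma adjusted p = 0.975). Array number 1 was the highest of its group in both groups. The difference was -0.030 without wildtype 3 and 0.20 without wildtype 1.

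For the study's question of lower expression, the intervals give a bound for RNA, not for enzymes. All 6 lay above a log2 difference of -1, and 5 of 6 lay above -0.5, the exception being Ndst1. These intervals are not adjusted for the number of probe sets. How many of all probe sets lay above the same limits was not counted, so these counts do not set the members apart. For Ndst3 and Ndst4 the bound holds for the signal only, since it was not separated from background.

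Whether Glce moved apart from the other members was asked from differences within each array, which leave out whatever an array does to both genes alike. Glce minus Ndst1 was -2.25, -2.44 and -1.72 on wildtype arrays 1, 2 and 3 and -1.65, -1.92 and -1.59 on diabetic arrays 1, 2 and 3. The diabetic values were higher on average by 0.42, and wildtype 3 overlapped with them (exact two-sided permutation p = 0.2). Glce minus Ndst2 was -0.30, -0.23 and 0.056 in wildtype and 0.37, -0.076 and 0.44 in diabetic liver, a shift of 0.41 (exact permutation p = 0.2), and it was higher in diabetic liver within each of the 3 numbers (exact sign-flip p = 0.25, the smallest that 3 pairs can give). Glce minus Hs2st1 shifted by 0.34 (exact permutation p = 0.3). Of all 15 pairs of members, 0 were without overlap between groups, and the lowest adjusted p over the pairs was 0.75. This exact test cannot go below 0.1 with 3 arrays against 3.

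**Figure D3:**
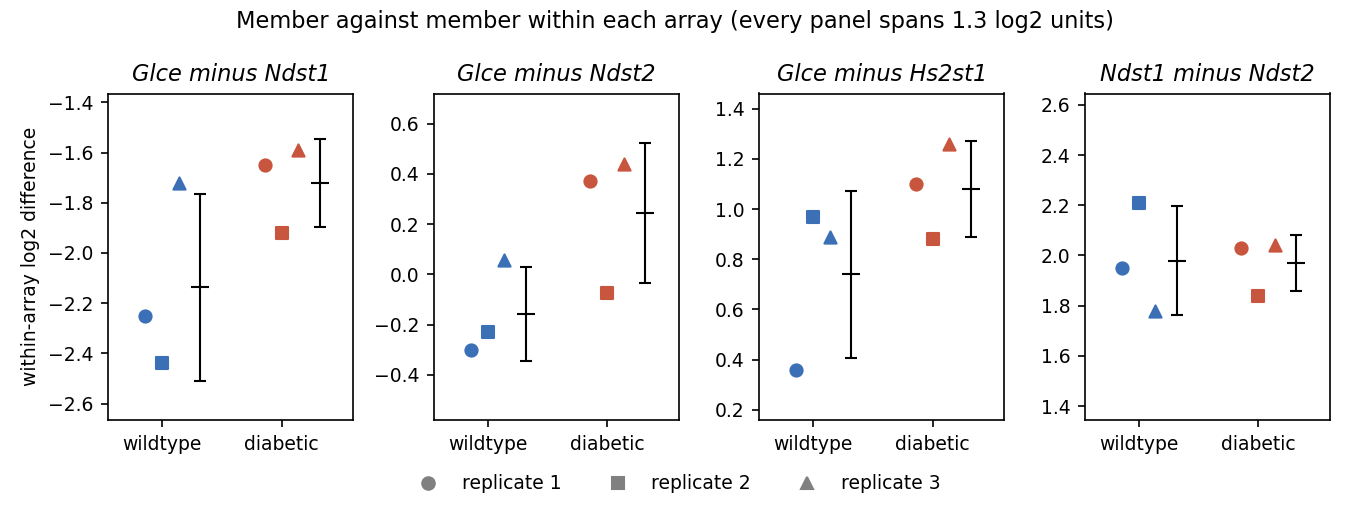
Difference in log2 value between 2 genes on the same array (vertical axis) for Glce minus Ndst1, Glce minus Ndst2, Glce minus Hs2st1 and Ndst1 minus Ndst2, on 3 wildtype (blue) and 3 diabetic (red) arrays, with mean ± SD beside each group. In the Glce panels the diabetic means are higher by 0.34 to 0.42 with overlap between groups, and Ndst1 minus Ndst2 has nearly the same mean in both.

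Other genes shared the array-to-array profile of these members. Likeness was measured as the mean absolute difference between profiles over the 6 arrays, each centred on its own mean, and candidates had to vary at least by a range of 0.5 times that of the member. The nearest genes were picked by this likeness, so a pattern they share with a member follows from the choice. How near the nearest of so many candidates would come by chance was not tested. For Ndst1 the nearest of 320 candidates was Xylt2, an enzyme that attaches the first xylose of the chain to the core protein, at a distance of 0.050. Fgfr4, a growth factor receptor of hepatocytes, followed at 0.094 and Naglu, a lysosomal enzyme of heparan sulfate breakdown, at 0.10. Xylt2 read 6.65, 7.20 and 6.24 on wildtype arrays and 6.69, 6.52 and 6.61 on diabetic arrays, which is the Ndst1 pattern of wildtype 2 high, wildtype 3 low and diabetic arrays between. The Xylt2 probe set name carries the suffix that marks possible cross-hybridisation. Ndst2 lay 0.12 from Ndst1, with 11 of the 320 candidates nearer to Ndst1 (3.44%). Seen from Ndst2, 61 of its 626 candidates were nearer than Ndst1 (9.74%).

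The nearest probe sets to Ndst2 were those of Slc35c2, a Golgi transporter-like protein (0.044), Capn1, a calpain protease (0.046), and Abhd16a, a lipid hydrolase (0.051). Nearest to Glce were Ovgp1 (0.10), Vegfd, a vascular growth factor (0.12), and Sdc1 (0.13), the syndecan of hepatocytes that carries heparan sulfate and binds lipoprotein remnants. Sdc1 read 8.18, 8.91 and 8.27 on wildtype arrays and 8.99, 8.78 and 8.93 on diabetic arrays. Wildtype 2 overlapped with the diabetic arrays there as for Glce, which follows from the choice by likeness. Its difference was 0.44 (limma adjusted p = 0.928). Nearest to Hs2st1 were Gfra2 (0.056) and Spock3 (0.058), both with low signals, and Cog6, a subunit of a Golgi tethering complex (0.062). The Spock3 probe set name also carries the cross-hybridisation suffix. Ndst3 and Ndst4 varied less than the median probe set and were given no nearest genes.

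**Figure D4:**
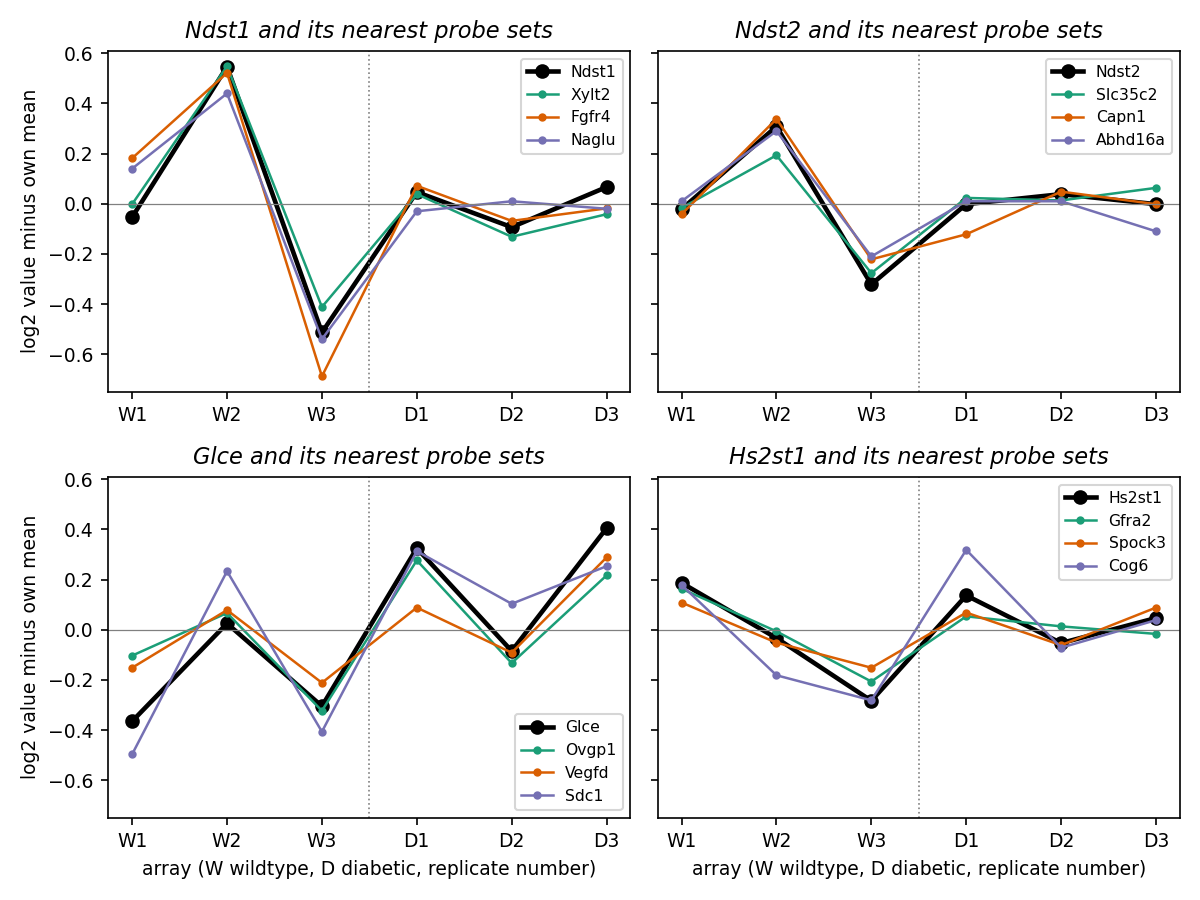
Log2 value minus its own mean over 6 arrays (vertical axis) by array (horizontal axis; W wildtype, D diabetic) for Ndst1, Ndst2, Glce and Hs2st1 (black), each with its 3 nearest probe sets. Ndst1 and Ndst2 peak on wildtype 2 and dip on wildtype 3, while Glce is highest on diabetic 1 and diabetic 3.

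The Ndst1 and Ndst2 pattern, highest on wildtype 2 and lowest on wildtype 3 of all 6 arrays, occurred in 87 of 1246 probe sets (6.98%), and the opposite in 31 (2.49%). Among 28 other measured genes of heparan sulfate assembly it occurred in 5, Xylt2, Ext2, Hs3st2, Hs3st3b1 and Slc35d1, and the opposite in 0. The count takes no account of size. Hs3st2 and Hs3st3b1 had ranges of 0.26 and 0.24 over the arrays, under the median range of 0.38. Among 6 measured breakdown genes it occurred in Idua and Naglu. These arrays also differed in markers of other cells. The 5 measured stellate cell markers averaged 5.08 on wildtype 2 and 5.70 on wildtype 3, against 5.07 to 5.38 on diabetic arrays, and the 5 macrophage markers 5.51 and 5.81, against 5.37 to 6.18. The 5 endothelial markers averaged 5.81 and 5.89, and the 3 lymphocyte markers 5.17 and 5.18. The 11 hepatocyte markers averaged 10.11 on wildtype 2 and 10.44 on wildtype 3, against 10.38 to 10.66 on diabetic arrays. Their median deviation from each gene's own median was -0.012 on wildtype 2 and 0.013 on wildtype 3. Single hepatocyte genes differed both ways between these arrays, with Igfbp1, which insulin represses, at 6.50 and 10.09, and Igfbp2 at 12.93 and 11.96. On diabetic arrays 1, 2 and 3 Igfbp1 read 10.65, 8.90 and 11.52, so wildtype 3 lay inside the diabetic range. Angptl4 did likewise, at 8.81 on wildtype 2 and 10.41 on wildtype 3, against 10.57, 9.67 and 10.59 on diabetic arrays. For Igfbp2 wildtype 3 lay below the diabetic arrays, which read 12.51, 12.66 and 12.39. The part of cell content in the Ndst1 and Ndst2 pattern was not tested, nor was what set wildtype 3 apart.

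In the rest of the assembly pathway 1 of 28 measured genes passed, Papss2, which makes the sulfate donor PAPS that all sulfotransferases use. Unlike the members, its probe set has a name with the suffix that marks possible cross-hybridisation. Papss2 read 9.51, 9.68 and 9.79 on wildtype arrays and 10.61, 10.52 and 10.44 on diabetic arrays, with no overlap. The difference was 0.87 (SE 0.10, limma adjusted p = 0.0412). It lost that call when same-numbered arrays were blocked (limma adjusted p = 0.215), and whichever array was left out, 0 of the 28 passed. Of these 28 genes 9 had a higher and 19 a lower mean in diabetic liver, where 616 of all 1246 probe sets had a lower mean. Their median difference was -0.036 against 0.002 over all probe sets. All 5 linkage genes and 4 of 5 polymerisation genes had lower means, as had 7 of 11 genes of later sulfation and sulfate removal, and 3 of 7 donor supply genes. None of these lower means passed. Wildtype 2, which stood apart, was the highest array for 13 of the 28 genes (46.4%), against 25.4% of all probe sets. Polymerisation genes had a median deviation of 0.45 from their own medians there, and -0.018 and -0.13 on wildtype 1 and 3. The part of wildtype 2 in the lower means was not tested.

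Among single genes that did not pass, Ugdh, which makes the UDP-glucuronic acid from which the chain is built, differed by 0.53 (95% confidence interval -0.13 to 1.18; limma adjusted p = 0.928). The groups overlapped, since diabetic 2 at 10.64 was under wildtype 3 at 10.90, but within each number the diabetic array was higher, by 0.55, 0.79 and 0.24 for numbers 1, 2 and 3. With the number as a block the Ugdh interval, not adjusted for the number of probe sets, ran from 0.18 to 0.88 (limma adjusted p = 0.822). Xylt1, the other xylosyltransferase, had means that differed by -0.16 with no overlap between groups, and Hs6st2, a sulfotransferase acting after the members, by 0.14 with no overlap at a signal near 2.5 (adjusted p = 0.928 for both). In wildtype liver Xylt1 read 5.26, 5.26 and 5.28, and in diabetic liver 5.14, 5.22 and 4.97.

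The 6 measured breakdown genes, only some of which encode lysosomal enzymes that undo the members' work, showed 0 calls, and 0 at an unadjusted limma p under 0.05. Sgsh removes the N-sulfate placed by NDST enzymes, and its probe set name carries the cross-hybridisation suffix. Sgsh read 6.61, 6.86 and 6.30 in wildtype and 6.25, 6.37 and 6.39 in diabetic liver, so the groups differed by -0.25 (interval -0.61 to 0.11; limma adjusted p = 0.928). Idua cleaves the iduronic acid that Glce makes. It read 5.88, 5.99 and 4.77 in wildtype and 4.96, 5.13 and 5.11 in diabetic liver, a difference of -0.48 (-1.24 to 0.28; adjusted p = 0.928), with wildtype 3 below every diabetic array. Gusb, a lysosomal glucuronidase, differed by 0.24 and Hpse2, a heparanase relative, by -0.13 (limma adjusted p = 0.928 for both). Hpse2 was listed with the breakdown genes by its family and not by a known breakdown activity. Ids, the sulfatase for 2-O-sulfated iduronic acid, was not analysed here. The 6 genes had 2 higher and 4 lower means, with a median difference of -0.078. Wildtype 2 was the highest array for 4 of the 6 (66.7%), against 25.4% of all probe sets.

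**Figure D5:**
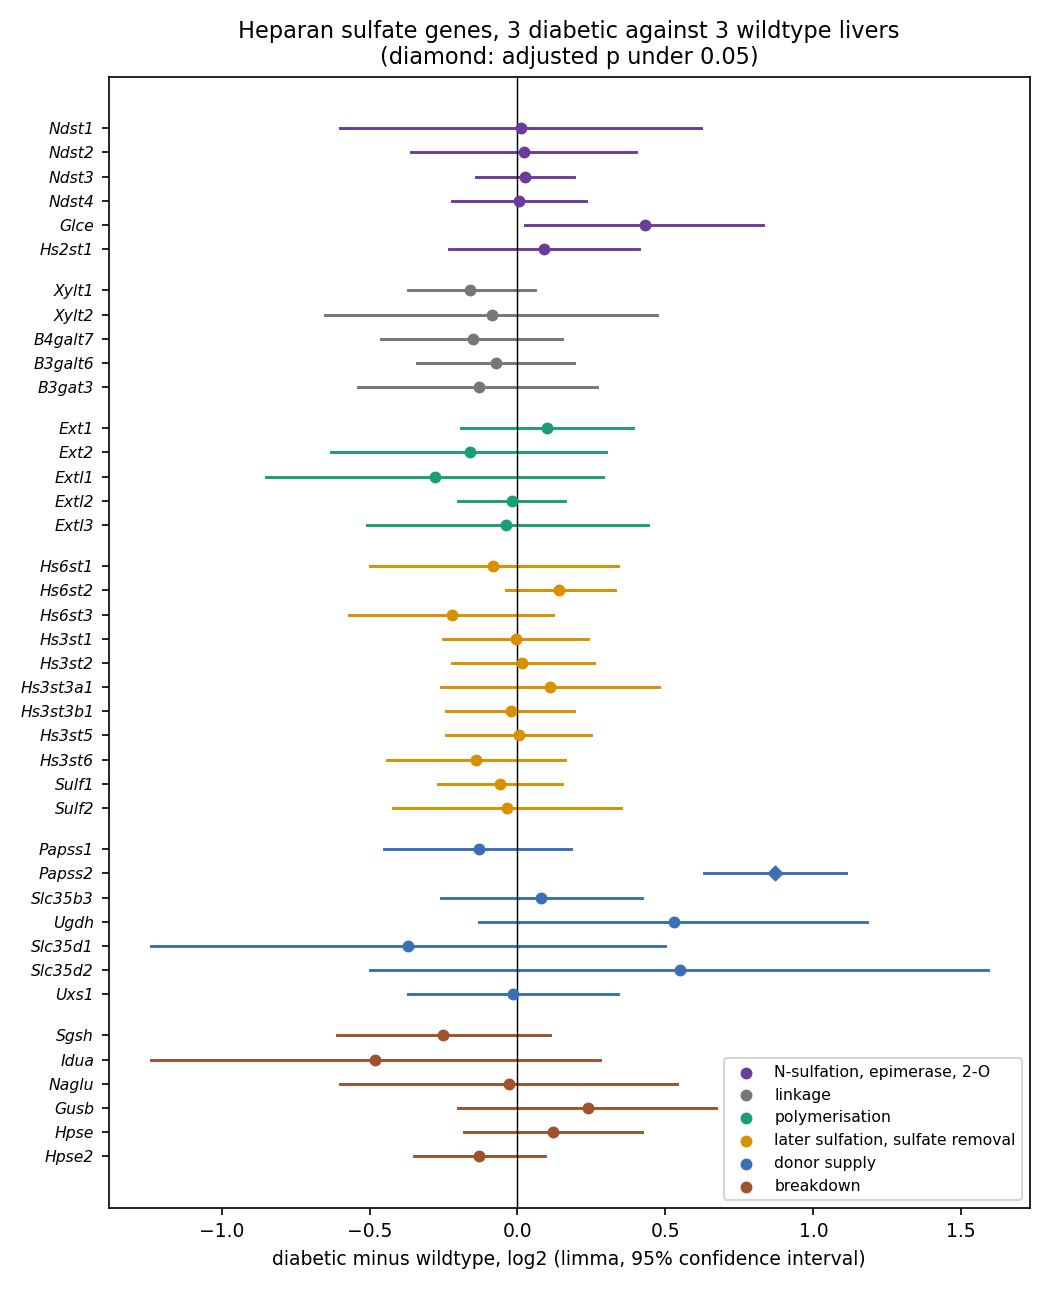
Difference between diabetic and wildtype liver on the log2 scale (horizontal axis; limma estimate with 95% confidence interval) for the 6 member genes, 28 other genes of heparan sulfate assembly and 6 breakdown genes (vertical axis), coloured by role. Of the 6 members the Glce interval alone lies above 0 before adjustment, and Papss2 (diamond) is the 1 gene with an adjusted p under 0.05.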

How the data were processed

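Liver RNA in 3 samples labelled wildtype and 3 labelled diabetic was measured with 1 array per sample. The authors deposited log2 values for 1246 probe sets, made with RMA per the submitters' processing notes; no source used here names its version or settings. The log base is not stated and was taken as log2 because RMA gives log2 and values ran from 2.03 to 13.45. RMA had already aligned the arrays, so a shift shared by most probe sets would not show.

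RefSeq accessions in probe set names gave 963 named probe sets and 909 genes through the table of GRCm38.p6. Groups were compared with limma 3.58.1 in R 4.3.3 (lmFit and eBayes, 2.44 prior degrees of freedom) over all probe sets with Benjamini-Hochberg adjustment. Pairs of members were compared by exact permutation tests. The fit was also run on simulated data that had the same SD in both groups. That setting is unlike the unequal spreads of Ndst1 and Ndst2, and no result here rests on it. The number of arrays limits the precision; the median SE was 0.11.

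Deviations of same-numbered arrays from their group means correlated at 0.397, 0.138 and 0.162 over all probe sets, above the limit of 0.1 for treating numbers as pairs. Arrays of unlike number were not compared in this way, so these values do not show that the numbers mark pairs. The labels do not say what a number stands for. The genes named were the 6 members, up to 4 genes by smallest p from each of the assembly and breakdown lists, the breakdown genes acting on the members' products, and the 3 nearest probe sets per member; other genes were named after their values were seen. Members and lists were chosen with earlier results of these data known. Alternatives were other scaling, a filter on dim probe sets, other variance models, weighted arrays, replicate number as a block, and fits without 1 array.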

Additional observations from a re-analysis of the deposited data

How the results depend on the processing

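No member passed under any alternative; over 12 refits the Glce adjusted p ran from 0.761 to 0.995. The count of 4 called probe sets was 0 with eBayes trend and robust, with the ordinary linear model and with the replicate block, and 0 to 1 without 1 array. The 1 called assembly gene became 0 with eBayes trend and robust, with the replicate block, and without any 1 array (0 to 0). The replicate block changed no other call. Probe sets without overlap numbered 98, and 38 without the probe sets dimmer than the median, where fewer were counted. Ndst4 turned to -0.0046 after quantile normalization. Without 1 array the differences ran from -0.24 to 0.29 for Ndst1, -0.13 to 0.18 for Ndst2, 0.013 to 0.048 for Ndst3, -0.043 to 0.064 for Ndst4, 0.34 to 0.58 for Glce and -0.030 to 0.20 for Hs2st1; the cause of the changed signs was not tested beyond the array left out. Of 15 pairs of members, 10 changed the sign of their shift without some array, and 3 did so after quantile normalization: Ndst1 minus Ndst2 to 0.013, Ndst1 minus Ndst3 to 0.026 and Ndst2 minus Ndst3 to 0.013. Leave-one-out pair shifts ran from -0.19 to 0.21 for Hs2st1 minus Ndst1, -0.087 to 0.19 for Hs2st1 minus Ndst2, -0.046 to 0.15 for Hs2st1 minus Ndst3, -0.088 to 0.24 for Hs2st1 minus Ndst4, -0.11 to 0.11 for Ndst1 minus Ndst2, -0.26 to 0.28 for Ndst1 minus Ndst3, -0.30 to 0.29 for Ndst1 minus Ndst4, -0.15 to 0.17 for Ndst2 minus Ndst3, -0.19 to 0.19 for Ndst2 minus Ndst4 and -0.042 to 0.085 for Ndst3 minus Ndst4. Ndst3 and Ndst4 had no value without the dim probe sets, and no member had a second probe set to try. Signal over background, which no detection call measured here, limits what Ndst3 and Ndst4 can show.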
